A study of Danio rerio with 6 samples.

Results

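Small nucleolar RNAs (snoRNAs) and small Cajal body RNAs (scaRNAs) were taken from a zebrafish gene table by their symbols: those starting with SNOR, snoZ, snoU, sno followed by a digit or low line, SCARNA, or ACA followed by a digit. Of the 32571 rows of the table, 244 matched, and the 193 with an FPKM above 0 in at least 1 group are described here. FPKM is a fragment count scaled for gene length and for sequencing depth. By name, 84 rows were box C/D snoRNAs (SNORD), 81 were box H/ACA snoRNAs (SNORA), 12 were scaRNAs (SCARNA) and 16 had other sno names such as snoU85 and snoZ30. They carried 108 symbols, 49 of them on several rows, so most rows of such symbols that are described singly are given with their Ensembl ID. The match was by name and not by sequence, so the class is the one that the symbol states.

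The samples were whole embryos of the AB strain around the handover from maternal to embryonic gene expression. Control embryos were collected at 2 hours post fertilisation (hpf) and at 6 hpf. The injected groups, all collected at 6 hpf, received miR-430 MO, a morpholino that blocks this microRNA, or CNOT7-DN, which the series design lists as inhibition of the deadenylase CNOT7, or alpha-amanitin, a toxin that blocks RNA polymerase II (amanitin). A separate control at 6 hpf, control B, belonged to the amanitin experiment. RNA came from pools of 40 to 50 embryos, and the design states triplicates, while the series lists 1 sample per group. The table gives 1 value per gene and group, so no spread between replicates can be shown, and depth is unknown. Changes are therefore called where the authors' deposited table lists a q-value below 0.05.

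As background, snoRNAs are guides: each pairs with a stretch of ribosomal RNA and positions an enzyme on it. Box C/D snoRNAs bind fibrillarin, which methylates the ribose, and box H/ACA snoRNAs bind dyskerin, which turns uridine into pseudouridine. The scaRNAs do the same for the RNAs of the spliceosome, inside Cajal bodies. In vertebrates most of them are cut out of the introns of longer host genes after RNA polymerase II has transcribed the host, and a mature snoRNA needs its proteins to survive.

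The labels of stage and of amanitin were checked on marker genes, and those of miR-430 MO and CNOT7-DN were not. All 6 egg markers (for example btg4 and mos) fell from 2 to 6 hpf and all 6 zygotic markers (for example krt18 and sox32) rose, by the authors' q in the deposited table. In amanitin against control B 5 of the 6 zygotic markers fell by the same q. The remaining marker, sox32, was at an FPKM of 188 in control B and 0.11 in amanitin, with a q of 0.0771. Over all genes, 65.8% of rows were above 0 at 2 hpf, 72.3% in control 6 hpf and 64.9% in amanitin. In bulk samples of whole embryos, fewer cells of a type and less RNA per cell cannot be told apart. An exact 0 may also be a failed estimate rather than absence. For that reason no single row is given a fold against 0. The log2(FPKM + 1) ratios behind the medians below do include rows at 0, whose size is set by the added 1. Medians over rows above 0 in both groups are therefore given beside them for the stages and for both amanitin comparisons.

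The snoRNAs and scaRNAs stood low at 2 hpf and in amanitin and high in the remaining groups. Rows above 0 numbered 85 of 193 at 2 hpf and 100 in amanitin, 181 in control 6 hpf and 182 in control B, 180 with miR-430 MO and 178 with CNOT7-DN. Their median FPKM was 0 at 2 hpf and 3.57 in amanitin, 196 in control 6 hpf and 268 in control B, 189 with miR-430 MO and 196 with CNOT7-DN. As a share of the FPKM of all genes, their sum was 1.22% at 2 hpf and 2.35% in amanitin, 9.32% in control 6 hpf and 12.2% in control B, 7.98% with miR-430 MO and 9.36% with CNOT7-DN. In 154 rows (79.8%) every group of the 4 at 6 hpf without amanitin lay above both 2 hpf and amanitin, against 24.9% of all rows of the table that were above 0 in any group. A row at 0 at 2 hpf had to be above 0 elsewhere to be included at all, so these counts partly follow from the rule.

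The classes differed at 2 hpf. Box C/D rows were above 0 there in 18 of 84 cases (21.4%), box H/ACA rows in 53 of 81 (65.4%), scaRNA rows in 6 of 12 and other sno names in 8 of 16. In amanitin the counts above 0 were 28 of 84, 59 of 81, 7 of 12 and 6 of 16 in the same order. In control 6 hpf nearly every row was above 0 in each class, with 78 of 84, 77 of 81, 11 of 12 and 15 of 16. The pattern of FPKM above 0 in all 4 groups at 6 hpf without amanitin, and 0 both at 2 hpf and in amanitin, was held by 58 rows (30.1%), against 4.82% of all rows of the table above 0 in any group. Box C/D rows made up 42 of these 58 (50% of their class), box H/ACA rows 12 (14.8% of theirs), other sno names 4 and scaRNAs 0. Box H/ACA rows instead were above 0 in all 6 groups in 46 of 81 cases (56.8%), against 12 of 84 box C/D rows (14.3%). Length moved with class: among rows alone at their locus, box C/D RNAs spanned 57 to 128 bases (median 76, 14 rows) and box H/ACA RNAs 132 to 139 (median 133, 8 rows). FPKM divides by an estimated length, which weighs most on such short RNAs, and the part of length in the difference between classes was not tested.

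**Figure D1:**
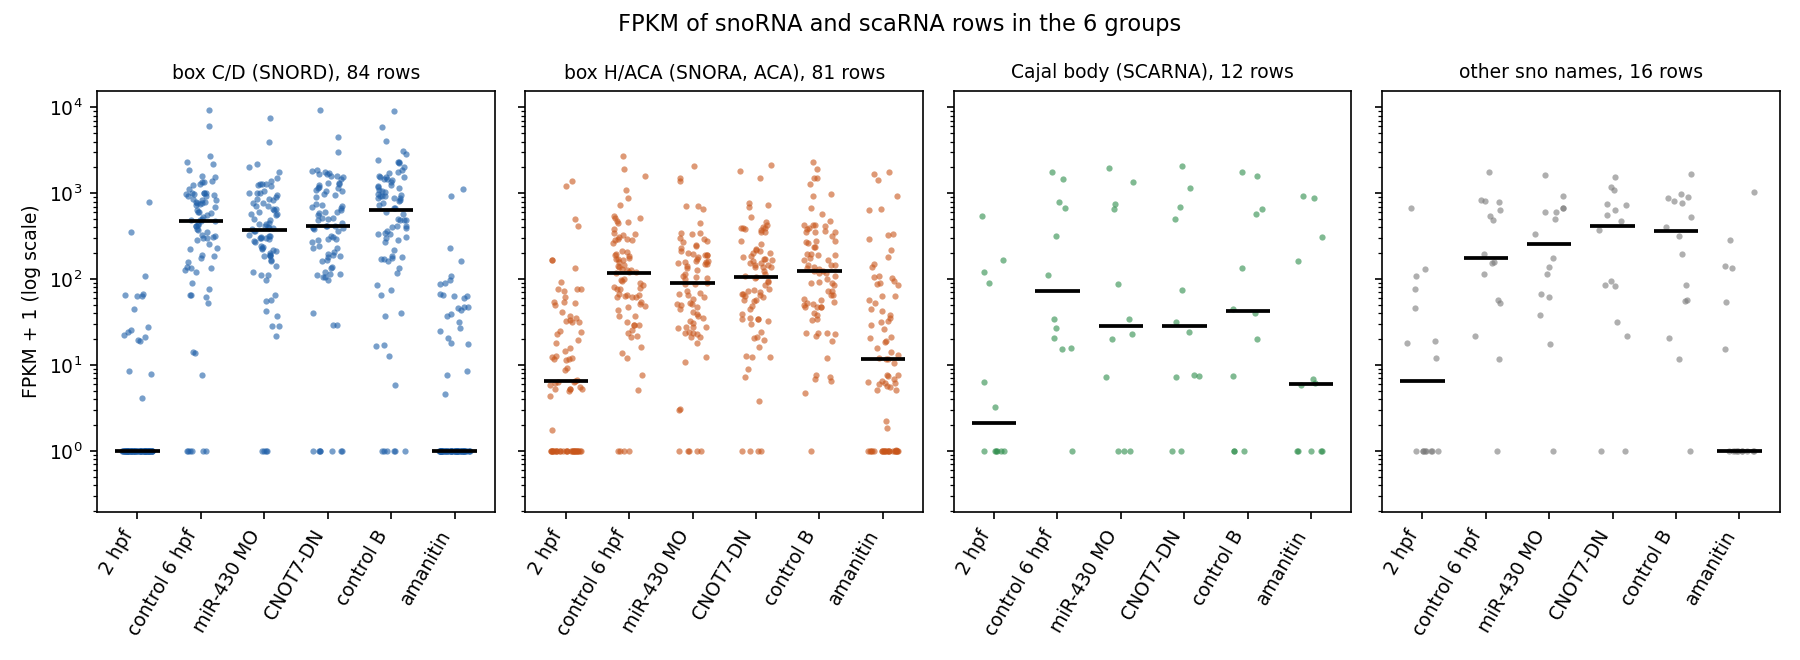
FPKM + 1 on a log axis of each of the 193 rows in the 6 groups, 1 panel per class; points are rows, spread sideways at random, and black lines are medians over rows. The box C/D median is at 0 FPKM at 2 hpf and in amanitin and between 373 and 643 FPKM elsewhere, while the box H/ACA medians at 2 hpf and in amanitin are 5.58 and 10.8 FPKM.

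The first comparison, control 6 hpf against control 2 hpf, asks what happens to these RNAs as the embryo starts to transcribe its own genome. On the log2(FPKM + 1) scale, over the 184 rows that reached an FPKM of 1 at either stage, the median ratio was 5.16, against -0.47 for all genes; this scale understates changes of low genes. At least 2-fold higher at 6 hpf were 176 rows, and 3 were at least 2-fold lower, where the shares over all genes were 18.6% higher and 29.9% lower. Of the 181 rows above 0 at 6 hpf, 99 (54.7%) were listed at 0 at 2 hpf, against 13% of all genes. For the 82 rows above 0 at both stages the median log2 ratio was 2.63.

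Among box C/D snoRNAs the median log2 ratio was 8.27, with 61 of the 78 rows above 0 at 6 hpf listed at 0 at 2 hpf. SNORD47 (ENSDARG00000086382), which in human lies in an intron of the noncoding gene GAS5, had the highest FPKM of any row: 781 at 2 hpf and 1116 in amanitin, 9274 in control 6 hpf and 8965 in control B, 7527 with miR-430 MO and 9398 with CNOT7-DN. It was 11.9-fold higher at 6 hpf than at 2 hpf, but its authors' q in the deposited table was 0.082. SNORD31 (ENSDARG00000082087) came next, with 108 at 2 hpf and 59.5 in amanitin, 6146 in control 6 hpf and 5982 in control B, 3912 with miR-430 MO and 4500 with CNOT7-DN. Its 57.0-fold difference between the stages had a q of 0.275 in the authors' deposited table. Both were therefore lower at 2 hpf and in amanitin than in the rest, without a call between the stages. SNORD47 still had the highest FPKM of the box C/D rows at 2 hpf and in amanitin.

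Of 64 box C/D rows tested, 8 (12.5%) rose from 2 to 6 hpf by the authors' q in the deposited table. Of all genes tested, 20.8% rose. Those 8 rows were all listed at 0 at 2 hpf. They were both rows of SNORD65, 2 of SNORD12, and 1 each of SNORD31 (ENSDARG00000080531), SNORD29, SNORD30 and SNORD88. SNORD65 (ENSDARG00000080775) was 0 at 2 hpf and 164 in amanitin, 2710 in control 6 hpf and 2313 in control B, 2002 with miR-430 MO and 3009 with CNOT7-DN. Its neighbour SNORD65 (ENSDARG00000080188) was 0 at 2 hpf and 0 in amanitin, 2318 in control 6 hpf and 2317 in control B, 2213 with miR-430 MO and 1880 with CNOT7-DN. Both rows were high in all 4 groups at 6 hpf without amanitin, and in amanitin 1 of them was above 0. SNORD30 (ENSDARG00000080156) was 0 at 2 hpf and 0 in amanitin, 992 in control 6 hpf and 1760 in control B, 715 with miR-430 MO and 1064 with CNOT7-DN. SNORD29 (ENSDARG00000080698) was 0 at 2 hpf and 0 in amanitin, 1575 in control 6 hpf and 2444 in control B, 1765 with miR-430 MO and 1683 with CNOT7-DN. Each of these box C/D rows was called with a q of 0.0001 in the authors' deposited table.

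Box H/ACA snoRNAs had a median log2 ratio of 2.93, below that of the box C/D rows. Over rows above 0 at both stages the median was 2.23 for 52 box H/ACA rows and 4.31 for 17 box C/D rows. The highest of the class was SNORA57 (ENSDARG00000083389), with an FPKM of 1222 at 2 hpf and 1751 in amanitin, 2681 in control 6 hpf and 2327 in control B, 2060 with miR-430 MO and 2105 with CNOT7-DN. It was abundant in every group and rose 2.19-fold from 2 to 6 hpf (q of 0.0001 in the authors' deposited table). SNORA16 (ENSDARG00000081931) rose from 496 to 1893 (q = 0.0088) and SNORA23 (ENSDARG00000083454) from 413 to 1077 (q = 0.0283), both by the authors' deposited table. The other risen box H/ACA rows were SNORA62 (ENSDARG00000084991), from 0 to 122, and 2 of the 4 SNORA3 rows. In all, 6 of 67 box H/ACA rows tested rose (8.96%), against 20.8% of all genes tested.

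SNORA3 (ENSDARG00000087710) was the exception at the top of the 2 hpf levels. Its FPKM was 1386 at 2 hpf and 1682 in amanitin, 1601 in control 6 hpf and 1510 in control B, 1505 with miR-430 MO and 1511 with CNOT7-DN. All 6 values lay close together, and none of the 5 deposited comparisons called it. The 3 other SNORA3 rows, within 7401 bases on chromosome 19, were at 0, 0 and 48.6 at 2 hpf. Of those, ENSDARG00000080036 rose to 97.6 (q of 0.0001) and ENSDARG00000089970 rose to 285 (q = 0.026) at 6 hpf in the authors' deposited table.

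Among the scaRNAs, which guide the modification of spliceosomal RNAs, 4 rows rose from 2 to 6 hpf of 6 tested by the authors. Of all genes tested, 20.8% rose. SCARNA13, in human the RNA U93 with a pair of H/ACA domains, had an FPKM of 539 at 2 hpf and 872 in amanitin, 794 in control 6 hpf and 648 in control B, 748 with miR-430 MO and 699 with CNOT7-DN. Its rise was 1.47-fold, with a q of 0.000195 in the authors' deposited table, and amanitin was its highest group. SCARNA14 (ENSDARG00000084578) was at 120 at 2 hpf and 919 in amanitin, 1751 in control 6 hpf and 1746 in control B, 1967 with miR-430 MO and 2050 with CNOT7-DN. SCARNA6 (ENSDARG00000083760), in human a mixed C/D and H/ACA guide, was at 167 at 2 hpf and 307 in amanitin, 1482 in control 6 hpf and 1585 in control B, 1338 with miR-430 MO and 1160 with CNOT7-DN. A further SCARNA6 row (ENSDARG00000084622) was likewise lowest at 2 hpf (89.9) and in amanitin (162) and highest in control 6 hpf (680). SCARNA14, SCARNA6 and that further row all rose from 2 to 6 hpf by the authors' deposited table. SCARNA24 stood at 112 in control 6 hpf, 132 in control B and 5.26 in amanitin, and at 0 at 2 hpf. SCARNA16 stood at 320 in control 6 hpf and at 0 elsewhere, and the 6 further scaRNA rows were at or below 44.4 in every group.

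Of the other sno names, snoU85 (ENSDARG00000081126), in human the scaRNA that guides changes of the U5 RNA, had an FPKM of 676 at 2 hpf and 1034 in amanitin, 1759 in control 6 hpf and 1659 in control B, 1641 with miR-430 MO and 1529 with CNOT7-DN. It rose 2.60-fold from 2 to 6 hpf (q of 0.0001), and a further snoU85 row (ENSDARG00000083325) rose from 131 to 630 (q = 0.00644), both by the authors' deposited table. The row snoZ30 (ENSDARG00000081799) went the other way. It was at 108 at 2 hpf and 135 in amanitin, 0 in control 6 hpf and 55.6 in control B, 114 with miR-430 MO and 94.2 with CNOT7-DN. It is the 1 row called as fallen from 2 to 6 hpf (q of 0.0001 in the authors' deposited table). Since control B and the injected groups at 6 hpf were all above 0, that call rests on the 0 in control 6 hpf.

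**Figure D2:**
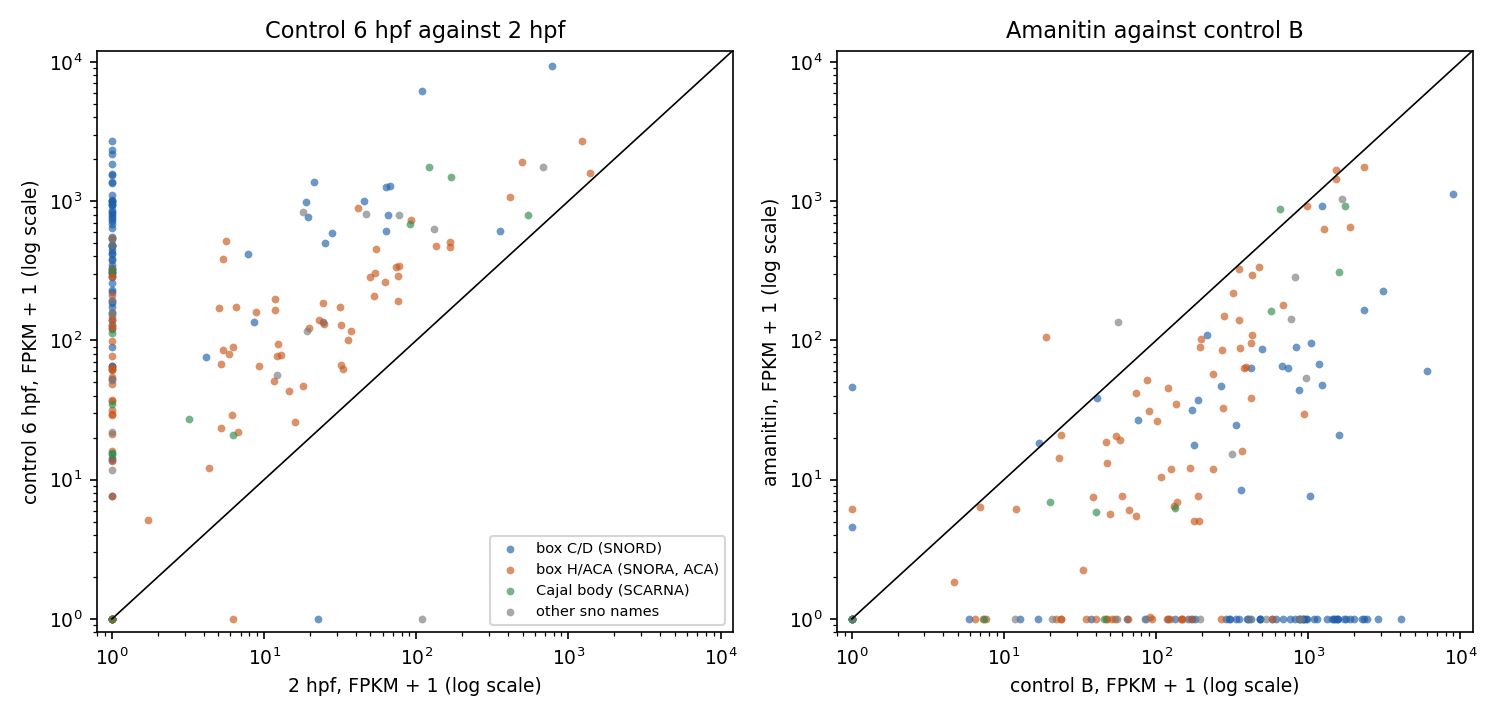
FPKM + 1 of the 193 rows on log axes, control 6 hpf against 2 hpf on the left and amanitin against control B on the right, coloured by class, with the line of equal values. Most rows lie above the line on the left and below it on the right, and the rows stacked at 1 (FPKM of 0) at 2 hpf or in amanitin are mostly box C/D.

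Few of these large differences were called by the authors. In control 6 hpf against control 2 hpf, 151 rows were tested, of which 20 rose and 1 fell, while 20.8% of all genes tested rose and 51.7% fell. Of the 147 tested rows that were at least 2-fold apart, 20 were called (13.6%), against 87.5% of all such genes. The remaining 42 rows were not tested, 25 with the status NOTEST and 17 with LOWDATA. Calls were more frequent for rows whose locus in the table held no longer gene. Of those, 14 of 22 tested were called (63.6%), against 7 of 129 (5.43%) for rows at a locus shared with a longer gene. The median log2 ratios of these sets were 6.52 and 4.73, so rows at shared loci differed widely in FPKM too, mostly without a call.

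In amanitin against control B, the comparison that asks which RNAs depend on transcription by RNA polymerase II, the picture was the reverse of that between the stages. The median log2 ratio over 185 rows was -4.31, against 0.12 for all genes. At least 2-fold lower were 157 rows and at least 2-fold higher 5, where the shares over all genes were 28.7% lower and 20.5% higher. By class the medians were -8.20 for box C/D, -2.69 for box H/ACA, -2.36 for scaRNAs and -4.36 for other sno names. Over rows above 0 in both groups the medians were closer together, at -3.34 (26 rows), -1.88 (58 rows), -1.81 (7 rows) and -1.97 (6 rows) in the same order. Of the 182 rows above 0 in control B, 85 (46.7%) were listed at 0 in amanitin, against 15.3% of all genes. Within box C/D that was 52 of 78 (66.7%) and within box H/ACA 22 of 80 (27.5%).

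By the authors' deposited table, 22 of the 154 rows tested fell in amanitin against control B and 1 rose, while 29.2% of all genes tested fell and 41.6% rose. The fallen rows held 8 box C/D, 8 box H/ACA, 3 scaRNA and 3 other rows. All of these box C/D rows except SNORD47 were listed at 0 in amanitin, as were SNORA50, SNORA3 (ENSDARG00000080036) and snoR38. Their calls rest on an exact 0, which may be a failed estimate. SNORD47 fell 8.03-fold, from 8965 to 1116 (q = 0.00289 in the authors' deposited table), and kept the highest FPKM among the box C/D rows in amanitin. SNORA50 fell from 575 to 0, SNORA26 from 421 to 37.5, SNORA32 from 931 to 28.5 and SNORA27 from 357 to 87.0, each with a q between 0.000105 and 0.0418 in the authors' deposited table. SCARNA6 (ENSDARG00000083760) fell from 1585 to 307 (q = 0.000105) and SCARNA14 (ENSDARG00000084578) from 1746 to 919 (q = 0.00338), again by the authors' deposited table. The smallest called fall was that of SNORA57 (ENSDARG00000083389), from 2327 to 1751 (q = 0.0422). SCARNA13 was the row that rose, from 648 to 872 (q = 0.0055 in the authors' deposited table).

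A set of rows stood at high levels in amanitin as well. At 100 FPKM or more in amanitin were 29 rows, among them 16 of 81 box H/ACA and 5 of 84 box C/D rows, while at 2 hpf 16 rows reached that level and in control 6 hpf 127. The 16 rows with 100 FPKM or more at 2 hpf, chosen after their values were seen, carried 78.5% of the summed FPKM of all 193 rows at 2 hpf, 71.2% in amanitin, 32.3% in control 6 hpf and 27.1% in control B. They were SNORA3, SNORA57, SNORD47, both snoU85 rows, SCARNA13, SNORA16, SNORA23, SNORD97, SCARNA6, SNORA42, SNORA74, SNORA70 (ENSDARG00000081115), SCARNA14, SNORD31 (ENSDARG00000082087) and snoZ30 (ENSDARG00000081799), with the highest row of each symbol at 2 hpf meant where there are several. SNORD97, a box C/D snoRNA, was at 352 at 2 hpf and 926 in amanitin, 611 in control 6 hpf and 1236 in control B, 606 with miR-430 MO and 603 with CNOT7-DN. SNORA74 (ENSDARG00000082186), in human the RNA U19, was at 165 at 2 hpf, 465 in control 6 hpf, 982 in control B and 920 in amanitin. In both rows control B and amanitin lay above control 6 hpf.

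**Figure D3:**
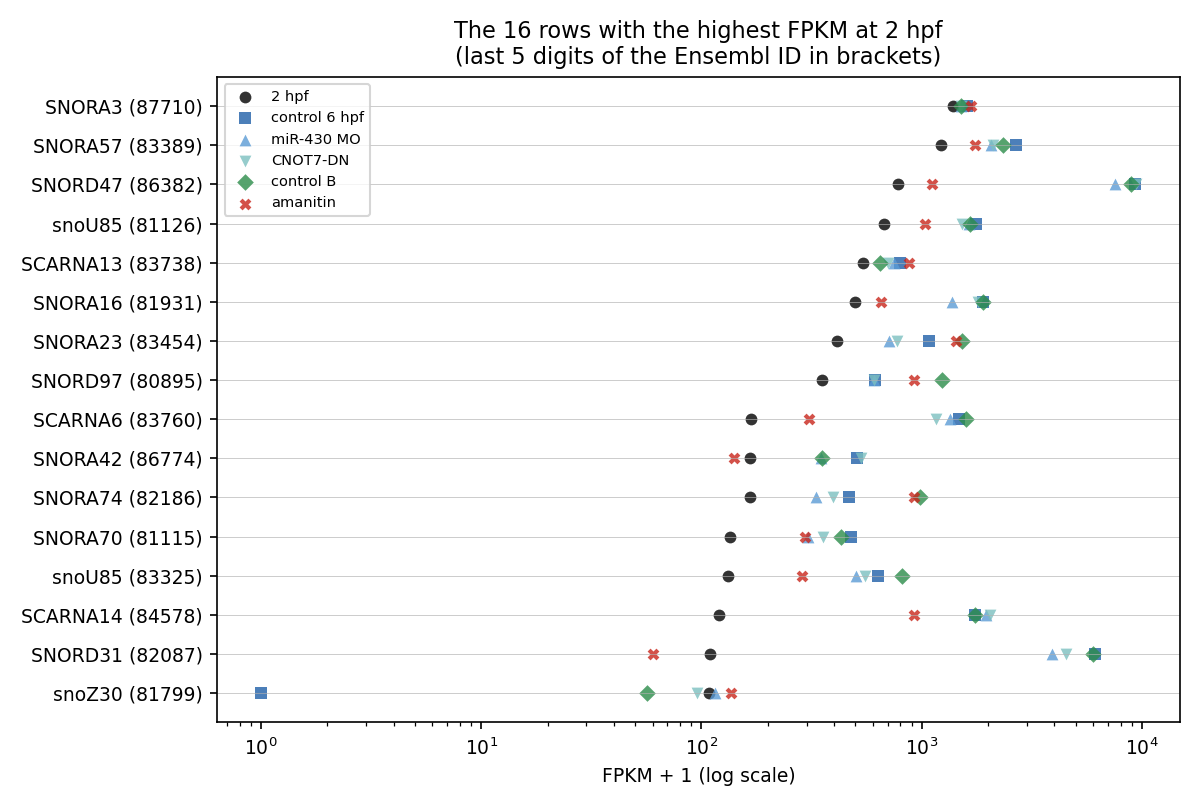
FPKM + 1 on a log axis of the 16 rows with the highest FPKM at 2 hpf, 1 symbol per group. In SNORA3 and SCARNA13 the 6 groups lie together, in SNORD31 and SNORD47 the 2 hpf and amanitin symbols stand far to the left, and snoZ30 has its 0 in control 6 hpf.

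Amanitin embryos at 6 hpf were also compared with control embryos at 2 hpf by the authors; the amanitin group is the same as in the preceding comparison, and the 2 hpf group the same as in the first. Over the 116 rows that reached an FPKM of 1 in either group the median log2 ratio was 0.88, against -0.34 for all genes. Of all 193 rows, 76 were at 0 in both groups and are not in these medians, among them 51 of the 84 box C/D rows. Over the 14 of the 116 rows with no longer gene at their locus the median was 0.30, with 3 rows at least 2-fold higher and 3 lower. Over the 67 rows above 0 in both groups the median was 0.61. For box C/D it was 2.11, and 0.16 over the 13 rows above 0 in both. For box H/ACA it was 0.84, and 0.58 over 45 such rows. At least 2-fold higher in amanitin were 55 of the 116 rows and at least 2-fold lower 21. The shares over all genes were 5.5% higher and 28.3% lower. The authors' deposited table calls 5 rows of 63 tested as risen and 0 as fallen by Cuffdiff, with 22.2% of all genes tested risen and 44.1% fallen. At an unadjusted Cuffdiff p below 0.05 there were 6 higher and 0 lower. That was 9.52% of the rows tested, against 69.1% of all genes tested. SCARNA14 (ENSDARG00000084578) rose from 120 to 919 (q = 0.0285), SNORA23 (ENSDARG00000083454) from 413 to 1436 (q = 0.00445) and SNORD65 (ENSDARG00000080775) from 0 to 164 (q = 0.00286) in the authors' deposited table. The other risen rows were SCARNA13, from 539 to 872, and SNORA57 (ENSDARG00000083389), from 1222 to 1751.

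Some box C/D snoRNAs lay side by side with no longer gene listed at their locus. Coordinates are those of the table on the Zv9 build, and the base from which starts count was not checked. On chromosome 7 between 26210100 and 26213512 stood 3 SNORD31 rows with SNORD29, SNORD30 and SNORD22; in human these snoRNAs lie in introns of the noncoding gene SNHG1. Their summed FPKM was 192 at 2 hpf and 133 in amanitin, 12821 in control 6 hpf and 15238 in control B, 8425 with miR-430 MO and 10490 with CNOT7-DN. On chromosome 11 between 7384284 and 7385202 stood 4 SNORD12 rows, in human part of the noncoding gene ZFAS1, with sums of 38.7 at 2 hpf and 62.8 in amanitin, 3790 in control 6 hpf and 4710 in control B, 2580 with miR-430 MO and 3697 with CNOT7-DN. The SNORD65 rows on chromosome 21, within 300 bases, summed to 0 at 2 hpf and 164 in amanitin, 5027 in control 6 hpf and 4630 in control B, 4215 with miR-430 MO and 4889 with CNOT7-DN. In each of these runs, 2 hpf and amanitin were the lowest groups and both controls at 6 hpf stood far above them.

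Most rows, 166 of 193 (86.0%), had a locus in the table that also held a longer gene, over 78 loci. A longer gene here is any row with the same locus entry and no small RNA name, and lengths were not compared. For each locus the longer gene with the highest mean FPKM was taken as the gene at the locus. Where a locus held several such genes, this choice favours abundant ones, and its effect was not tested. By RefSeq annotation it was protein-coding at 66 loci with 137 rows and a long noncoding RNA at 6 loci with 22 rows. A shared locus entry does not show that the snoRNA overlaps that gene or is cut from it. Whether counting used strand is not given in the sources used here. Reads of overlapping genes may be split between them.

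At the protein-coding loci the longer genes were above 0 in every group. Many small RNA rows there, but not all, were at 0 at 2 hpf or in amanitin. Of the 66 genes, 60 were at an FPKM of 10 or more at 2 hpf, and 60 in amanitin. The lowest gene was at 1.04 at 2 hpf and at 0.688 in amanitin. The median FPKM of the 66 genes was 163 at 2 hpf and 146 in amanitin, 248 in control 6 hpf and 234 in control B, 220 with miR-430 MO and 219 with CNOT7-DN. For the 137 small RNA rows at these loci the median was 0 at 2 hpf and 4.06 in amanitin, 156 in control 6 hpf and 180 in control B, 158 with miR-430 MO and 163 with CNOT7-DN. Listed at 0 were 77 of the 137 (56.2%) at 2 hpf, 8 in control 6 hpf, 6 in control B and 64 (46.7%) in amanitin. From 2 to 6 hpf the median log2 ratio was 0.63 for the genes and 4.41 for the small RNAs, and 128 of 137 small RNAs had a larger ratio than the gene at their locus. In amanitin against control B these medians were -0.75 and -4.06, and 118 of 137 small RNAs had the lower ratio. These medians and counts took all rows at the loci, without a minimum FPKM. A small RNA at 0 in both groups entered with a ratio of 0 and could count on either side of its gene.

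Ribosomal protein genes were the longer gene at 21 loci with 51 rows. Their lowest FPKM at 2 hpf was 131 and their median 207, yet 26 of the 51 small RNA rows were listed at 0 there. In amanitin the genes had a median of 197 and 20 of the 51 rows were at 0. At rpl4, a protein of the large ribosomal subunit, the gene had an FPKM of 182 at 2 hpf, 347 in control 6 hpf, 376 in control B and 176 in amanitin. All 4 SNORD18 rows at that locus were at 0 at 2 hpf and in amanitin, and between 414 and 838 in control 6 hpf. At rpl12 the gene reached 774 in amanitin and 399 at 2 hpf, and the 3 SNORA65 rows stood at 0 at 2 hpf and between 6.61 and 25.6 in amanitin, below their 28.3 to 209 in control 6 hpf. Other rows at ribosomal protein loci, named after their values were seen, stood higher in amanitin than at 2 hpf. At rpl23 the SNORA21 row ENSDARG00000080533 was at 22.1 at 2 hpf and 335 in amanitin, against 138 in control 6 hpf and 473 in control B. The SNORA21 row ENSDARG00000081050 was at 31.3 and 323, against 128 and 350. At rpl4 a SNORD16 row (ENSDARG00000082158) was at 7.54 at 2 hpf and 85.7 in amanitin.

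The gene with the highest FPKM at 2 hpf among these loci was tpt1, a translationally controlled protein, with 704 at 2 hpf, 1129 in control 6 hpf, 1287 in control B and 798 in amanitin. Its 3 SNORD58 rows were at 0 at 2 hpf and in amanitin, and between 949 and 1360 in control 6 hpf. The 2 SNORA31 rows at the locus were at 53.3 and 0 at 2 hpf and at 179 and 10.8 in amanitin. Within this locus the box C/D rows were therefore at 0 in both groups and a box H/ACA row was not.

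Some genes at these loci encode proteins of the snoRNA particles themselves. The gene nop56, a core box C/D protein, had an FPKM of 169 at 2 hpf, 397 in control 6 hpf, 370 in control B and 165 in amanitin. SNORD57 at that locus was at 0 at 2 hpf and 0 in amanitin, 683 in control 6 hpf and 1554 in control B, 1294 with miR-430 MO and 1667 with CNOT7-DN. SNORA42 at the same locus was at 165 at 2 hpf and 139 in amanitin, 510 in control 6 hpf and 352 in control B, 346 with miR-430 MO and 531 with CNOT7-DN. The box H/ACA row was present in all 6 groups and the box C/D row in 4, at 1 locus. At dkc1, which encodes dyskerin, 4 SNORD83 rows were at 0 at 2 hpf, and 3 of them in amanitin, while the gene was at 168 and 150. The box H/ACA rows SNORA36 and SNORA56 at that locus were low as well. Of all 6 small RNA rows there, 5 were at 0 at 2 hpf and the highest was a box H/ACA row at 4.87. In amanitin 4 of the 6 were at 0, and the highest was a SNORD83 row at 46.2. At nop58, another core box C/D protein with 271 at 2 hpf and 312 in amanitin, SNORD70 and both SNORD11B rows were at 0 in both groups. The SNORD11B row ENSDARG00000085557 was also at 0 in control 6 hpf, and at 299 in control B.

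Where the longer gene was a long noncoding RNA, the gene too was low at 2 hpf and in amanitin. The 6 genes had a median FPKM of 3.36 at 2 hpf and 2.50 in amanitin, 90.5 in control 6 hpf and 103 in control B, 72.8 with miR-430 MO and 85.4 with CNOT7-DN. The 22 rows at these loci had medians of 0 at 2 hpf and 0 in amanitin, 483 in control 6 hpf and 957 in control B, 607 with miR-430 MO and 465 with CNOT7-DN. The gene gas5 itself was at 11.1 at 2 hpf and 9.09 in amanitin, 263 in control 6 hpf and 317 in control B, 227 with miR-430 MO and 267 with CNOT7-DN. At its locus SNORD47, described above, stood at 781 at 2 hpf and 1116 in amanitin, far above the gene. SNORD74 was at 0 at 2 hpf and 0 in amanitin, 1538 in control 6 hpf and 2247 in control B, 1282 with miR-430 MO and 1747 with CNOT7-DN. SNORD79 was likewise at 0 at 2 hpf and in amanitin and at 989 in control 6 hpf. At si:ch211-152p11.8, which was at 1.83 at 2 hpf and 42 in control 6 hpf, all 8 SNORD52 rows were at 0 at 2 hpf and 7 of 8 in amanitin. At si:dkey-102m7.3 the gene was at 2.12 at 2 hpf and 1.27 in amanitin, while the SNORA74 row described above (ENSDARG00000082186) stood at 165 and 920.

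**Figure D4:**
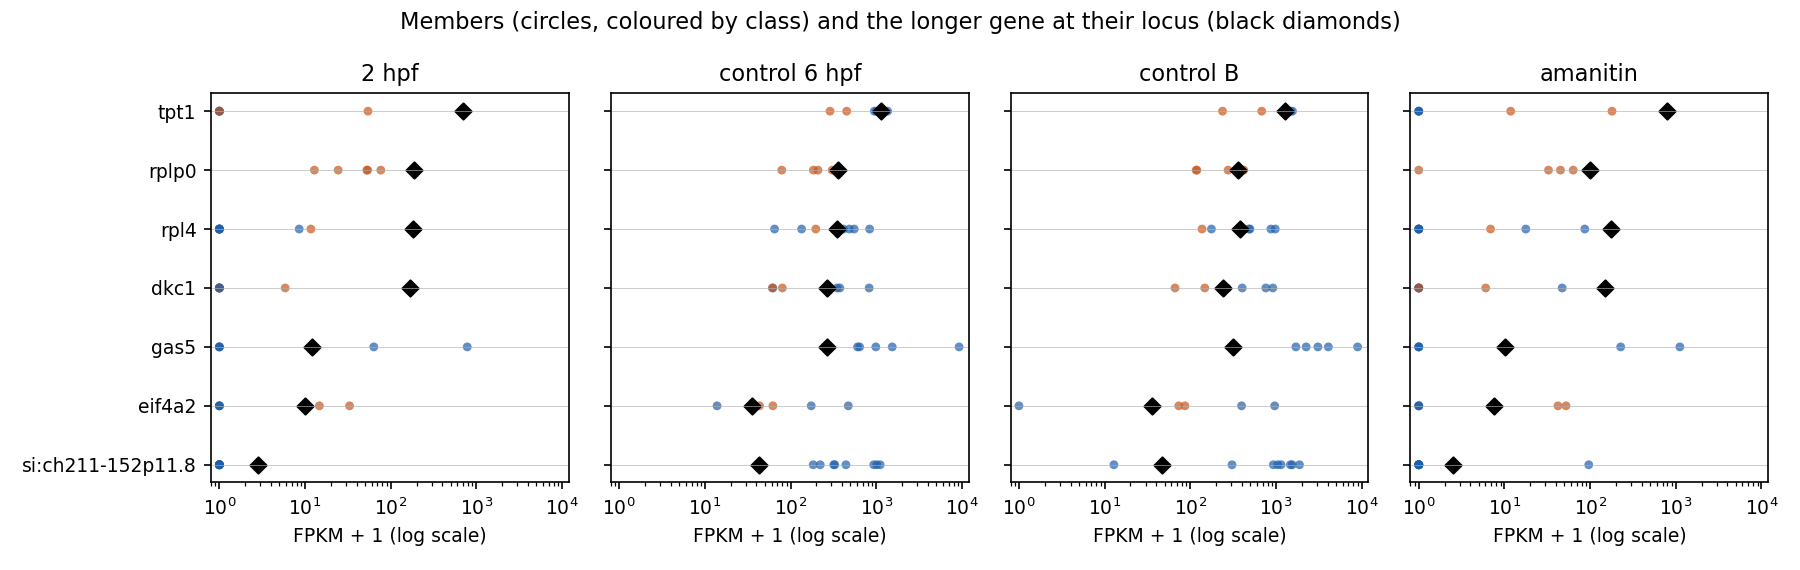
FPKM + 1 on log axes at the 7 loci with 5 or more small RNA rows, in 4 groups; black diamonds are the longer gene of the locus and circles the small RNA rows (blue box C/D, orange box H/ACA). At 2 hpf and in amanitin the diamonds of tpt1, rpl4 and dkc1 stay to the right while many circles lie at 1 (FPKM of 0). At gas5 and si:ch211-152p11.8 the diamonds are low as well, and at protein-coding eif4a2 the diamond is at 8.97 and 6.56 FPKM. At rplp0 the diamond is at 184 and 98.3 FPKM. There 0 of 5 circles are at 0 FPKM at 2 hpf and 1 is in amanitin.

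Rows with the same symbol did not all have the same level. The 3 SNORA57 rows ranged from 34.7 to 1222 at 2 hpf and from 99.9 to 2681 in control 6 hpf. The 8 SNORD52 rows, at 1 locus, ranged from 183 to 1111 in control 6 hpf and from 11.8 to 1879 in control B. Near-identical copies can share reads, so the split of a level over rows of 1 symbol is uncertain.

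The remaining groups at 6 hpf were compared with control 6 hpf, which they share with each other and with the first comparison. Injection of the morpholino against miR-430 gave a median log2 ratio of -0.28 over 187 rows, against -0.12 for all genes, and -0.53 with control B as the control. At least 2-fold lower were 30 rows and at least 2-fold higher 15, where the shares over all genes were 2.26% lower and 2.66% higher. Of 156 rows tested by Cuffdiff, 2 fell and 0 rose in the authors' deposited table, against 16.1% and 9.41% of all genes. At an unadjusted Cuffdiff p below 0.05 there were 5 lower and 1 higher. That was 3.85% of the rows tested, against 35.8% of all genes tested. SNORA50, a box H/ACA snoRNA, fell from 512 to 278 (q = 0.0378 in the authors' deposited table). Elsewhere it was at 4.58 at 2 hpf, 575 in control B, 356 with CNOT7-DN and 0 in amanitin. SNORD22, the box C/D snoRNA known in frog eggs for its need in processing of small-subunit ribosomal RNA, fell from 980 to 570 (q = 0.0313 in the authors' deposited table). Elsewhere it was at 18 at 2 hpf, 1028 in control B, 710 with CNOT7-DN and 6.61 in amanitin.

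In CNOT7-DN against control 6 hpf the median log2 ratio was -0.11 over 186 rows, against 0.04 for all genes, and -0.30 with control B as the control. At least 2-fold higher were 19 rows and at least 2-fold lower 21, where the shares over all genes were 1.51% and 1.26%. Cuffdiff called 0 of the 155 rows tested in the authors' deposited table, against 10.1% of all genes risen and 4% fallen. At an unadjusted Cuffdiff p below 0.05 there was 1 row (0.645% of those tested), which was higher, against 25.7% of all genes tested. The smallest q of any row was 0.118 in that table. The largest differences were of rows at or near 0 in 1 of the groups, such as SNORD36 (ENSDARG00000080936), at 6.63 in control 6 hpf, 182 in CNOT7-DN, 191 in miR-430 MO and 4.92 in control B.

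The 2 controls at 6 hpf, which have no deposited comparison, differed as well. Control B against control 6 hpf gave a median log2 ratio of 0.17 over 188 rows, against -0.04 for all genes, with 32 rows at least 2-fold higher in control B and 17 at least 2-fold lower. The shares over all genes were 2.34% and 1.57%. Both SNORD75 rows of the gas5 locus were higher in control B, at 4083 against 639 (ENSDARG00000080205) and at 3084 against 604 (ENSDARG00000082839). The median absolute log2 difference between the controls was 0.445 over the rows. SNORD59 (ENSDARG00000082833) was at 0 in control 6 hpf against 172 in control B, and SNORD66 (ENSDARG00000084411) at 192 against 0, so single rows differed between 0 and over 100 in the controls.

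**Figure D5:**
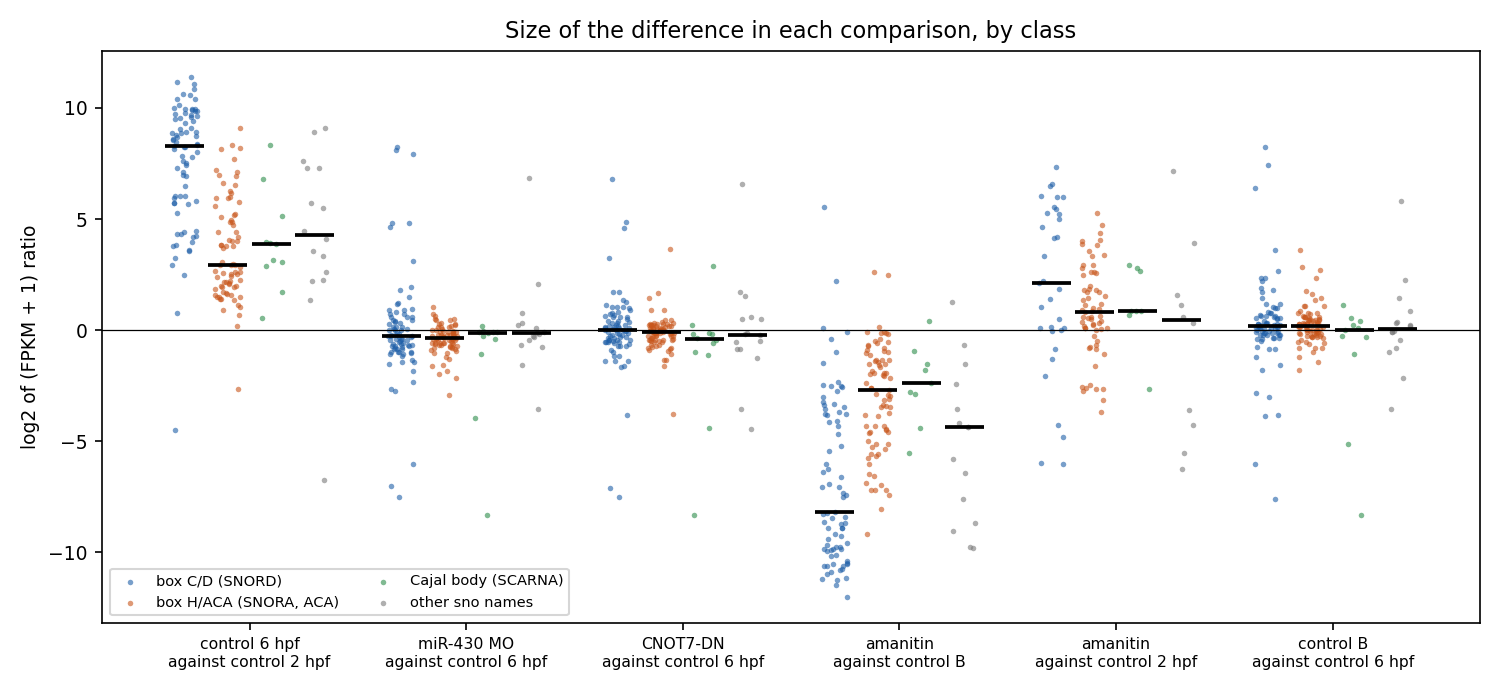
log2 of the (FPKM + 1) ratio of each row in the 6 comparisons, by class (colours), over rows that reached an FPKM of 1 on either side; points are rows, spread sideways at random, and black lines are medians. The medians of control 6 hpf against 2 hpf and of amanitin against control B lie far from 0 and farthest for box C/D (8.27 and -8.20, with many rows at 0 in 1 group), while those of miR-430 MO, CNOT7-DN and control B against control 6 hpf lie near 0.

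Genes for the proteins that carry these RNAs had smaller ratios between the stages than the RNAs. The medians were 0.33 for the box C/D proteins listed and 0.72 for box H/ACA core proteins, beside -0.47 for all genes. Of the box C/D proteins listed, 6 rows were tested in the authors' deposited table. From 2 to 6 hpf 3 rose (fbl, nop56 and nop58) and 1 fell (rrp9, a protein of the U3 particle and not of the shared core). Over all genes tested, 20.8% rose and 51.7% fell. The fibrillarin gene fbl was at 209 at 2 hpf and 311 in amanitin, 449 in control 6 hpf and 473 in control B, 379 with miR-430 MO and 395 with CNOT7-DN. All 4 core box H/ACA genes (dkc1, nhp2, nop10 and gar1) rose from 2 to 6 hpf. In amanitin against control B 3 of them fell and 0 rose. Of the 6 listed box C/D protein rows 4 fell, rrp9 among them, and 1 rose. The shares over all genes tested there were 29.2% fallen and 41.6% risen. Assembly factors of the particles fell in 8 of 11 cases and rose in 2 from 2 to 6 hpf, for example shq1 from 16.7 to 5.91. Cajal body and small RNA maturation genes fell in 12 of 18 cases and rose in 1, for example coil, the coilin scaffold of Cajal bodies, from 52.9 to 5.62.

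Genes for intron debranching and end trimming fell in 9 of 10 cases from 2 to 6 hpf and rose in 8 of 10, with 1 fallen, in amanitin against control B. Over all genes tested, 51.7% fell between the stages, and in amanitin against control B 41.6% rose and 29.2% fell. The debranching enzyme dbr1, which opens the intron lariat from which a snoRNA is trimmed, was at 74.5 at 2 hpf, 61.4 in control 6 hpf, 54.5 in control B and 124 in amanitin. Genes of RNA polymerase I and the U3 processome, tested in 26 rows, rose in 6 and fell in 10 cases between the stages, and fell in 19 with 1 risen in amanitin against control B. In miR-430 MO 17 of these 26 fell and 0 rose, by Cuffdiff. Of the 11 assembly factors 7 fell and 0 rose in miR-430 MO, and of the 18 Cajal body genes 4 rose and 0 fell in CNOT7-DN. Over all genes tested, 16.1% fell and 9.41% rose in miR-430 MO, and 10.1% rose and 4% fell in CNOT7-DN. These counts are from the authors' q in the deposited table, and the lists were chosen by function with earlier results of the data known.

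At the edge of the selection, the lowest row included was SNORD15 (ENSDARG00000080273), at 3.57 in amanitin and 0 elsewhere. In all, 7 rows were above 0 in a single group. They were SCARNA16 and snoR74 in control 6 hpf, SNORD63 in miR-430 MO, SCARNA15 in CNOT7-DN, SNORA17 in control B, and SNORA5 (ENSDARG00000091065) and SNORD15 in amanitin. The highest of these was SCARNA16 at 320, followed by SNORD63 at 299. The 51 matching rows listed at 0 in every group were left out by the rule. They held all 17 SNORD27 rows, all 4 SNORA73 rows, all 3 SNORD14 rows and 6 of 7 SNORD111 rows. SNORA73 and SNORD14 are known in yeast to be needed for processing of small-subunit ribosomal RNA, so a 0 in every group does not show that they were absent.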

How the data were processed

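Per the labels' protocols, libraries were stranded total RNA depleted of ribosomal RNA. The submitters' processing notes name TopHat 1.4.0, Cuffdiff 2.1.1 and the build Zv9 (danRer7). The deposited table gives, per the file headers, the FPKM of both groups, the p-value, the q-value and a test status for 5 comparisons. Not given in the sources used here are scaling between libraries, strand use in counting and the annotation release. The series lists 1 sample per group, and how the stated triplicates entered the q-values is not given. The labels do not say that triplicates came from separate clutches. The q-values may then reflect only technical spread, or no spread between replicates at all.

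From the FPKM, log2(FPKM + 1) ratios were computed over rows that reached an FPKM of 1 on either side. The comparison of small RNAs with the longer gene at their locus took all rows instead. A call is a status of OK with the authors' q below 0.05; sizes use a 2-fold difference, and no new p-value was made. Python 3.11.15, numpy 2.4.6, pandas 2.3.3 and matplotlib 3.10.9 were used, and the scripts were tested on simulated data. Alternatives were other pseudocounts, FPKM minimums, folds, scalings and controls. Symbols on several rows, or rows at another gene's locus, were also left out. Longer genes at a locus were named from identical locus entries in the table, and their type came from RefSeq by ID or symbol.

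Members and lists were chosen with earlier results of these data known. Named were the 10 rows with the highest FPKM, up to 6 rises and 6 falls per comparison (FPKM of at least 5, called ones first), scaRNAs at 5 or more, rows in 1 group only, the lowest row, genes at their loci and up to 4 genes per list; others were chosen after their values were seen. No sequence is printed.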

Additional observations from a re-analysis of the deposited data

How the results depend on the processing

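No paired analysis was possible because the table gives 1 value per group; for the same reason no replicate could be left out. The median log2 ratio kept its sign in all comparisons and settings tried. For control 6 hpf against 2 hpf (5.16) it was 7.18 with a pseudocount of 0.1 and 3.78 with 5. It was 5.63 centred on the median gene, 5.69 without symbols on several rows and 6.52 without rows at another gene's locus. Over rows above 0 in both groups it was 2.63. For amanitin against control B (-4.31) it was -5.02 and -3.37 with these pseudocounts, -6.44 without rows at another gene's locus and -2.33 over rows above 0 in both. For amanitin against 2 hpf (0.88) it was 0.30 without rows at another gene's locus. With control B as the control the median was -0.53 in miR-430 MO (-0.28) and -0.30 in CNOT7-DN (-0.11). Other medians moved by less than 0.445, the median absolute log2 difference of single rows between the controls. That is a spread of rows and not of medians, and the median log2 ratio between the controls was 0.17. Calls by the authors depend on which rows count. Without any symbol that occurs on several rows, 4 of the 20 risen rows were left, by construction. Of the 22 rows fallen in amanitin 8 were left in the same way. Rows above 0 in both groups, and both subsets applied to the authors' calls, were chosen after seeing the data. With folds of 1.5 and 4, counts in miR-430 MO were 26 and 9 higher and 63 and 11 lower; in CNOT7-DN 30 and 7 higher and 40 and 8 lower. With no depth given, a value of 0 has no stated limit of detection.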

Other observations

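Other small RNAs of the nucleolus stood in the table under names outside the rule; those with an FPKM of at least 100 in any group were looked up after their values were seen. U3, the box C/D RNA that helps cut ribosomal RNA rather than modify it, is transcribed from genes of its own. Its row ENSDARG00000080567 on chromosome 1 had an FPKM of 46.8 at 2 hpf and 316 in amanitin, 1532 in control 6 hpf and 3427 in control B, 1333 with miR-430 MO and 1283 with CNOT7-DN. A U3 row on chromosome 20 (ENSDARG00000086936) was at 40.7 at 2 hpf, 65.7 in control 6 hpf, 194 in control B and 280 in amanitin, so its highest group was amanitin. U8, also an independent gene, was at 0 at 2 hpf, 57.3 in control 6 hpf, 169 in control B and 5.56 in amanitin. Of the 4 U3 rows at this level, 3 were higher in control B than in control 6 hpf, as was U8, and the row ENSDARG00000089524 was lower, at 61.1 against 173. The row snR56 on chromosome 7, next to the run of SNORD31 rows, was at 96.4 at 2 hpf and 0 in amanitin, 6082 in control 6 hpf and 5083 in control B, 4113 with miR-430 MO and 3936 with CNOT7-DN. It was low at 2 hpf and in amanitin, like that run.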
